A study of Arabidopsis thaliana with 15 samples.

Results

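The response of the Arabidopsis thaliana mutant hen2-4 to flg22 was followed between 10 and 30 min by cap analysis of gene expression (CAGE), which sequences the capped 5′ ends of RNA and thereby counts transcription starts by position. The comparison rests on 6 of the 15 labelled libraries, chosen by their labels alone: 3 replicates of hen2-4 at 10 min and 3 at 30 min. The remaining 9 libraries, again in triplicate, covered wild type (wt) at the same times and rrp4-2 at 30 min only. The Col-0 seedlings spent 12 days on MS medium and 48 h in liquid MS, and received flg22 at 3.3 µM from a stock in DMSO at an age of 14 days. For every library, 10 whole seedlings were pooled and 5 µg of their total RNA was used, so plant-to-plant variation lies within a pool. All 5 groups received flg22 in DMSO, and no untreated library was used here, so the effect of the peptide and that of time in treated medium cannot be told apart. In hen2-4 a T-DNA disrupts HEN2. In rrp4-2, RRP4 is hypomorphic. Each p-value sets a change against the spread between replicates, which was estimated over all 15 libraries. Since replicates were grown and treated in parallel, that spread covers these samples only and not repeats of the experiment. In whole seedlings, a lower level can come from fewer cells of a type or from less RNA per cell, and these cannot be told apart.

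The flg22 peptide is a conserved stretch of bacterial flagellin that the receptor kinase FLS2 recognises at the plant cell surface. Recognition sets off calcium influx, an oxidative burst and mitogen-activated protein (MAP) kinase cascades, after which defence genes are transcribed and growth genes are turned down. HEN2 is a nuclear RNA helicase that hands transcripts to the RNA exosome, a 3′ to 5′ nuclease complex that trims small nucleolar RNA (snoRNA) precursors and microRNA by-products and removes short-lived non-coding transcripts.

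The 6 hen2-4 libraries held between 14.61 and 24.75 M tags in genes, so that 3 tags corresponded to between 0.134 and 0.204 counts per 1000000 tags (CPM, here always on library sizes adjusted by the trimmed mean of M-values, TMM). Replicates correlated across genes with r between 0.973 and 0.989 on the log scale, and no pair agreed within sampling noise. The first principal component of the 6 libraries separated the times and held 69.9% of the variance. Replicate 1 at 10 min stood apart from its group: 81 genes were at least 3-fold above both other replicates there, among them 11 snoRNA genes, 8 other non-coding RNA genes and 4 microRNA genes. Replicate 3 at 10 min was likewise above its partners for 65 genes, all protein-coding and 4 of them chaperone genes. Among wt libraries, replicate 3 at 30 min stood apart, with 257 genes above and 114 below its partners. Named results whose call or value turned on 1 of these libraries are given with and without it.

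HEN2 (AT2G06990, chr2:2894904-2902020, plus strand in TAIR10) was measured first, as a check of the labels. Its level was 9.06, 10.5 and 9.83 CPM in hen2-4 at 10 min and 7.89, 7.10 and 4.05 CPM at 30 min. In wt it was 42.9, 35.3 and 48.8 CPM at 10 min and 57.5, 36.1 and 39.6 CPM at 30 min. No hen2-4 library reached the lowest wt value, and HEN2 was not called between the times in hen2-4 (log2 change -0.63, SE 0.239, adjusted p = 0.0696 by edgeR). Remaining tags at the locus mark 5′ ends only and do not show whether a full transcript was made, and the position of the insertion is not given in the sources used here.

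Between 10 and 30 min, most chaperone genes of hen2-4 were called higher, as were smaller shares of its immune receptor, WRKY and glucosinolate genes. With all libraries in the fit, more than 50% of the auxin-responsive SAUR genes, type-A cytokinin regulators and snoRNA genes were called lower. Without replicate 1 at 30 min, 23 of 48 SAUR genes were, and without replicate 1 at 10 min, 12 of 30 snoRNA genes. Of 8 type-A regulators, 3 or 4 were called lower whenever 1 hen2-4 library was left out. A gene was called when its adjusted p was at most 0.05 by the edgeR quasi-likelihood test and its log2 change at least 1 in size. Of 18879 genes tested, 2135 were called (11.3%), of which 1133 were higher at 30 min (6.0%) and 1002 lower (5.31%). The median rise among the former was 3.21-fold (quartiles 2.41 and 4.89), and 128 genes rose at least 8-fold. The median fall was 2.69-fold (quartiles 2.26 and 3.70), and 56 genes fell at least 8-fold. The 3 libraries of each time did not overlap for 1127 of the genes called higher and 988 of those called lower. Over all tested genes, 4098 (21.7%) had non-overlapping libraries with the higher values at 30 min and 3949 (20.9%) with the lower.

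Counts of calls varied with the libraries in the fit, more so for lower genes. Without replicate 1 at 10 min, 1009 genes were called higher and 670 lower, and these held 964 and 616 of the calls above. Without replicate 2 or 3 at 10 min, 840 and 1123 were called lower, and without replicates 1, 2 or 3 at 30 min, 774, 750 and 766. Over all genes the median log2 change was 0.00 with TMM and -0.24 when libraries were scaled by their total alone, which turned the split into 833 genes higher and 1807 lower. Changes are therefore relative to the bulk of genes.

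**Figure D1:**
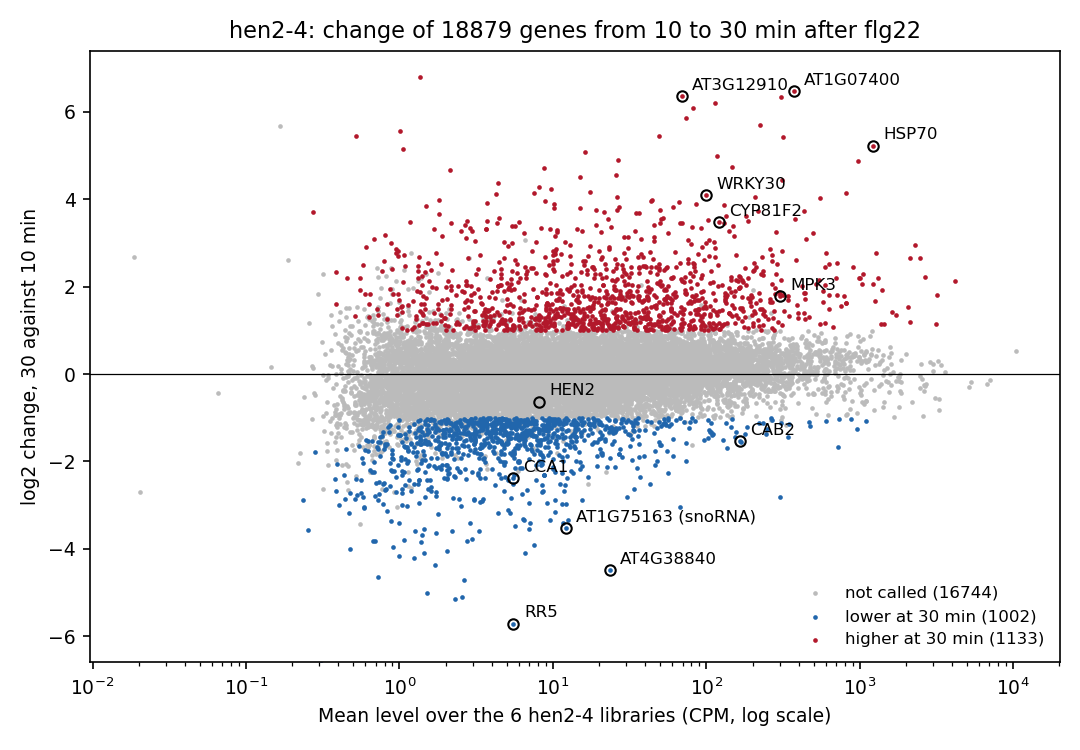
Each point is 1 of 18879 tested genes in hen2-4, with its mean level over the 6 libraries (CPM, log axis) and its log2 change from 10 to 30 min. The 1133 genes called higher are red and the 1002 called lower blue; heat shock genes reach the top of the plot near a log2 change of 6.47, and HEN2 lies in the uncalled band at -0.63.

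Among called genes with a mean of at least 5 CPM and no overlap between the times, rises and falls were ranked by size. The 10 largest rises were those of 7 chaperone genes, 2 transcription factor genes and 1 oxidase gene. AT1G07400, a small heat shock protein gene (chr1:2274926-2275783, plus strand), went from 4.38, 6.14 and 14.2 CPM at 10 min to 790, 797 and 613 CPM at 30 min, a fitted log2 change of 6.47 (SE 0.541, adjusted p = 9.4e-07). Separation of the times was a condition of this ranking. AT3G12910, a NAC domain transcription factor gene (chr3:4109375-4110849, plus strand), went from 1.60, 1.85 and 1.5 CPM to 146, 104 and 160 CPM (log2 6.37, SE 0.262, adjusted p = 2.9e-09). Its 10 min libraries were tightly grouped, unlike those of the small heat shock genes. AT1G71520, which encodes an AP2/ERF domain factor, went from 3.33, 1.95 and 2.30 CPM to 165, 147 and 123 CPM (log2 5.85, SE 0.304). AT1G26380, which encodes an FAD-binding oxidase of the berberine bridge enzyme family, went from 4.75, 8.89 and 11.6 CPM to 382, 382 and 552 CPM (log2 5.70, SE 0.337). All 10 of these genes stayed called when any 1 hen2-4 library was left out.

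The largest falls were less even between replicates. AT4G38840, a SAUR gene of auxin-driven growth (chr4:18124978-18125559, minus strand), went from 52.2, 38.8 and 43.3 CPM to 2.58, 1.92 and 1.56 CPM (log2 -4.49, SE 0.583, adjusted p = 5.7e-05). Its neighbour AT4G38860, another SAUR gene, went from 13.6, 12.2 and 11.6 CPM to 0.680, 0.779 and 0.713 CPM (log2 -4.09, SE 0.481). Both were low in every 30 min library and high in every 10 min library. RR5, a type-A response regulator that damps cytokinin signalling (chr3:17758427-17760950, minus strand), read 30.0, 0.998 and 1.65 CPM at 10 min and 0.0680, 0.183 and 0.312 CPM at 30 min (log2 -5.71, SE 1.34, adjusted p = 0.00717). Most of that difference came from replicate 1 at 10 min. Of the 10 largest falls, 6 lost the call without that library: RR5, AT5G22875, AT3G25930, AT1G29465, AT1G06515 and AT5G03345. AT3G06070, of unknown function, kept it, with 31.6, 18.6 and 13.8 CPM against 1.90, 2.24 and 1.83 CPM (log2 -3.41, SE 0.779).

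**Figure D2:**
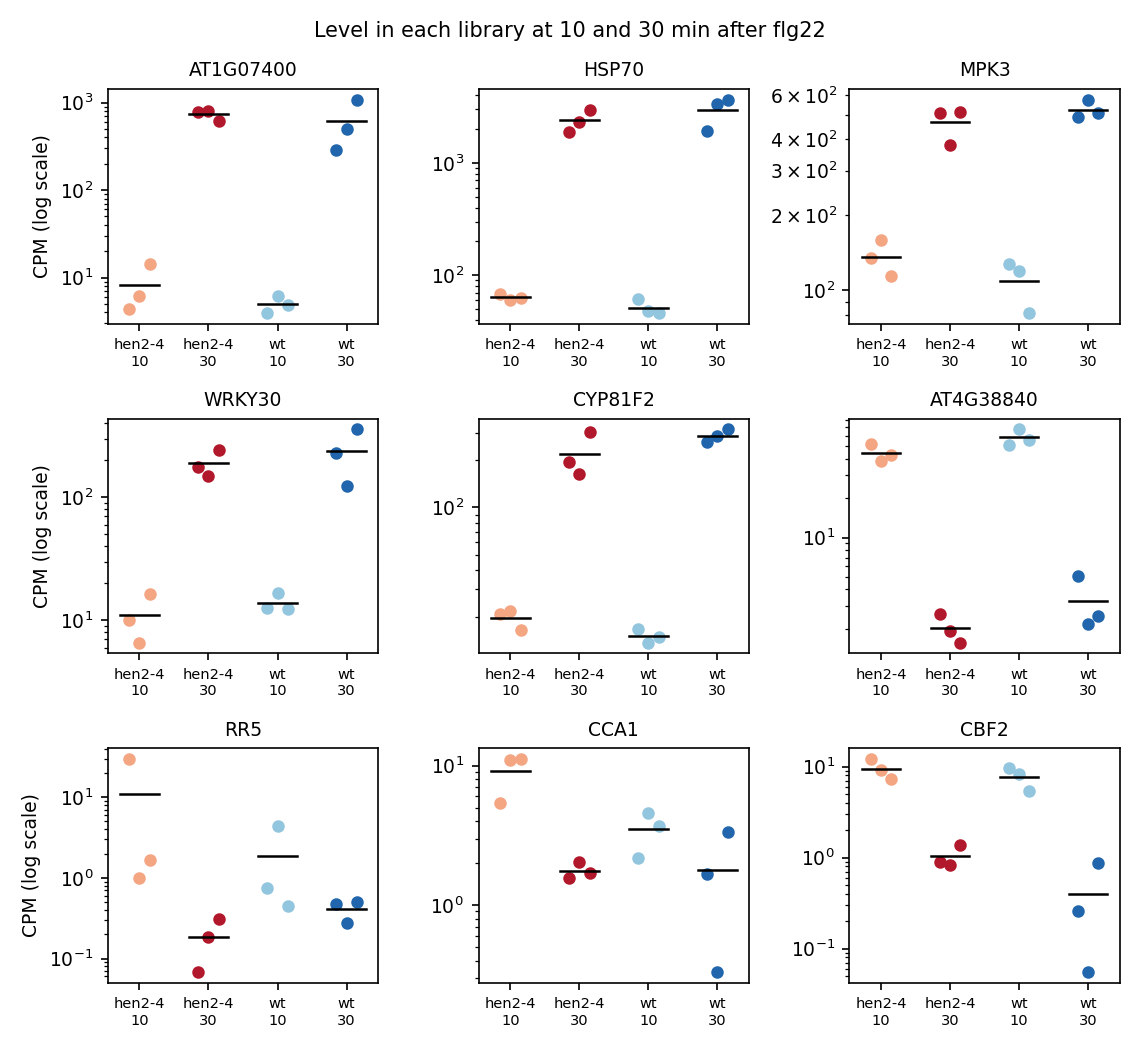
Level of 9 genes in each library of hen2-4 and wt (CPM, log axes), with points for the 3 replicates of each group and a line at their mean. AT1G07400, HSP70, AT4G38840 and RR5 were picked among genes without overlap between the hen2-4 times. RR5 is high in hen2-4 at 10 min only in replicate 1 (30.0 CPM).

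Among genes of immune perception and signalling, some receptors, kinases and ubiquitin ligases were called higher and none of those 3 lists held a lower call. Of 19 pattern receptor and partner genes, 7 were called higher and none lower (median log2 change 0.98, against 0.00 for all genes). SERK4, a co-receptor kinase of flagellin perception, went from 61.2, 51.2 and 59.1 CPM to 216, 256 and 294 CPM (log2 2.16, SE 0.207, adjusted p = 3.1e-06). The chitin receptor genes rose with it: LYK5 by a log2 of 2.26, LYK4 by 1.95 and CERK1 by 1.63. The receptor of flg22 and its main co-receptor were looked up for their role and not by the naming rule. FLS2 read 14.2, 13.2 and 18.1 CPM at 10 min and 16.1, 19.1 and 12.4 CPM at 30 min, with overlapping libraries and a log2 change of 0.07 (SE 0.236). BAK1 went from 64.5, 74.1 and 63.6 CPM to 141, 166 and 125 CPM, with no overlap (log2 1.09, SE 0.181). FRK1, a classical flg22 marker kinase looked up likewise, was near the detection limit at 10 min, with 0.308, 0.150 and 1.03 CPM, and read 2.18, 3.53 and 1.78 CPM at 30 min. It missed the call at a log2 change of 2.28 (SE 1.01, adjusted p = 0.120).

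Of 15 genes of the MAP kinase cascade, 4 were called higher and none lower (median 0.61). MPK3, a kinase activated within the cascade downstream of FLS2 (chr3:16756571-16758874, plus strand), went from 135, 159 and 114 CPM to 508, 380 and 513 CPM (log2 1.78, SE 0.192, adjusted p = 9.5e-06). MPK11, a relative of MPK4, went from 6.47, 3.29 and 6.44 CPM to 20.8, 32.0 and 31.7 CPM (log2 2.39, SE 0.279). The other pair were MAPKKK5 (log2 1.27) and MEK1 (log2 1.18, not called without replicate 2 at 30 min), which act upstream of such kinases. Among 9 genes for ubiquitin ligases of immunity, 6 were called higher. PUB24, which with its relatives dampens pattern-triggered responses, had the largest rise, from 23.7, 22.4 and 20.7 CPM to 203, 125 and 231 CPM (log2 3.07, SE 0.287). Its relatives PUB23 and PUB12 rose by log2 values of 1.76 and 1.39.

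Of 31 genes of calcium signalling and the oxidative burst, 12 were called higher and 2 lower (median 0.37). The calmodulin-like genes CML42 and CML37 rose by log2 values of 2.22 and 2.21. RBOHD, the NADPH oxidase that makes the burst, read 35, 33.6 and 64.5 CPM at 10 min and 97.2, 93.6 and 106 CPM at 30 min (log2 1.16, SE 0.223, given for its role). Its replicate 3 at 10 min was the highest of the early libraries and still below the late ones. CAT2, the main leaf catalase, which removes hydrogen peroxide, went from 599, 869 and 518 CPM to 363, 279 and 232 CPM (log2 -1.18, SE 0.228), a call lost without replicate 2 at 10 min. CML23 fell by a log2 of 3.32 but read 27.4 CPM in replicate 1 at 10 min against 2.35 and 5.31 CPM in its partners. Its call held in 2 of 6 fits with a hen2-4 library left out. It was lost without that replicate and without any 1 of the 30 min libraries.

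WRKY transcription factors bind the W-box and control many defence genes. Of 52 WRKY genes tested, 17 were called higher and 2 lower (median 0.45), and the number of higher calls ranged from 14 to 19 when single hen2-4 libraries were left out. WRKY30 (chr5:8153115-8154710, minus strand) had the largest rise, from 9.99, 6.59 and 16.3 CPM to 177, 148 and 242 CPM (log2 4.10, SE 0.384, adjusted p = 2.6e-06). WRKY6 went from 30.8, 24.6 and 27.1 CPM to 186, 151 and 202 CPM (log2 2.71, SE 0.300), and WRKY28 from 0.925, 1.2 and 1.03 CPM to 9.04, 9.48 and 7.35 CPM (log2 3.02, SE 0.258). In all of these the times did not overlap. WRKY22 and WRKY29, chosen as known flg22 markers, changed by log2 values of 2.55 (SE 0.261) and 2.04 (SE 0.482), and WRKY33 and WRKY40, chosen after their values were seen, by 2.19 and 2.07. WRKY45 went the other way, from 30.0, 37.6 and 34.8 CPM to 14.5, 19.7 and 15.7 CPM (log2 -1.04, SE 0.202), a call lost without replicate 2 at 10 min or replicate 1 at 30 min. WRKY49 was also called lower (log2 -1.35, adjusted p = 0.0496), which held in 2 of 6 fits with a hen2-4 library left out. Its call was lost without replicate 1 or 3 at 10 min (adjusted p = 0.116 and 0.114). The same was true without replicate 1 or 2 at 30 min.

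A window of 250 bases before the main start cluster of each gene was read from the TAIR10.1 genome of RefSeq, whose chromosomes have the lengths of TAIR10, and searched on both strands. The W-box was spelled TTGACC or TTGACT. It was found in 51.6% of windows of genes called higher (584 of 1132), in 22.7% of those called lower (227 of 998) and in 29.6% of all tested genes with a window (5564 of 18781). Among windows of WRKY genes, 23 of 52 held it. The upstream stretches of 3 strongly rising genes are shown because they hold several matches, with the letters of the W-box on either strand in capitals, 5′ to 3′ on the strand of the gene. They lie at chr5:8154716-8154965 (minus strand), chr3:4109079-4109328 (plus strand) and chr5:23187563-23187812 (plus strand).
WRKY30: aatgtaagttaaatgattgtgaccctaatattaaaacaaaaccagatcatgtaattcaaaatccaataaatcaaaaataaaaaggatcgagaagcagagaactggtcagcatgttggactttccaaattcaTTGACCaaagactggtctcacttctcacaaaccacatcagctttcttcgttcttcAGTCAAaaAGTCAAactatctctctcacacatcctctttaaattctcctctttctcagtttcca
AT3G12910: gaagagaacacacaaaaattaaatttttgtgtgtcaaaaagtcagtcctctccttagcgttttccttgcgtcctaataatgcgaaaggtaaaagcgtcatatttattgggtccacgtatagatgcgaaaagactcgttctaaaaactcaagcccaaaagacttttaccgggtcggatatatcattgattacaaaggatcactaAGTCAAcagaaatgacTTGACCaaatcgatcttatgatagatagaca
CYP81F2: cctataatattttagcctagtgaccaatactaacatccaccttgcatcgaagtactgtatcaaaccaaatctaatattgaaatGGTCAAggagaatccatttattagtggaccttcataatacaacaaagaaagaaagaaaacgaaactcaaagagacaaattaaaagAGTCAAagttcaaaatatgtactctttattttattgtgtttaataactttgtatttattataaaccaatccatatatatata

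Other families of transcription factors moved as well. Of 17 stress NAC genes, 6 were called higher and none lower (median 0.69). ATAF2, a NAC factor of wounding and defence, rose by a log2 of 2.55 and NAC042, also known as JUNGBRUNNEN1, by 2.37. Of 11 genes of ERF group IX, 3 were called higher. TDR1, also known as ERF98, went from 1.79, 2.25 and 2.26 CPM to 50.8, 43.5 and 54.3 CPM (log2 4.55, SE 0.231, adjusted p = 9.7e-09), and ERF15 changed by a log2 of 4.15. RAP2.9, in the DREB group, went from 5.36, 6.94 and 11.7 CPM to 126, 98.3 and 117 CPM (log2 3.82, SE 0.270). Of 13 stress zinc finger genes, 4 were called higher, led by ZAT11 (log2 2.71), and 1 lower, ZF3 (log2 -1.29).

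A list of 16 regulator genes that the study described as transiently induced had 6 members called lower at 30 min and none higher (median -0.95). The study chose that list on wt libraries of this series, and it was taken up here with the values of hen2-4 already known, so its direction is not independent evidence. CBF2, a cold-response factor (chr4:13015250-13016235, minus strand), went from 12.2, 9.09 and 7.24 CPM to 0.884, 0.825 and 1.38 CPM (log2 -3.18, SE 0.492, adjusted p = 3.0e-04). The 2 groups were wide apart in each library. HB4, a homeodomain factor of shade responses, and HSFA6B, a heat shock factor of abscisic acid responses, fell by log2 values of 2.48 and 2.24. ERF104, an ethylene response factor that the kinase MPK6 binds, read 75.7, 55.9 and 58.6 CPM at 10 min and 44.5, 29.1 and 32.9 CPM at 30 min, a log2 change of -0.84 that was under the fold limit.

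Genes of indole glucosinolates and camalexin, the main tryptophan-derived antimicrobials of Arabidopsis, showed 7 of 18 called higher and 1 lower (median 0.58). CYP81F2, the P450 that hydroxylates indole glucosinolates (chr5:23187840-23189902, plus strand), went from 21.0, 21.9 and 16.4 CPM to 194, 163 and 305 CPM (log2 3.48, SE 0.221, adjusted p = 6.6e-08). IGMT2 and IGMT1, methyltransferases of the next step, changed by log2 values of 4.23 (SE 0.341) and 1.88 (SE 0.241). PEN2, the myrosinase that activates the products at infection sites, went from 162, 208 and 196 CPM to 1093, 1220 and 904 CPM (log2 2.51, SE 0.25). The steps from hydroxylation to activation were thus each called higher, with no overlap between times. MYB34, a regulator of indole glucosinolate synthesis in roots, fell by a log2 of 1.36. PAD3, the last enzyme of camalexin synthesis and given for that role, was uneven at 10 min, with 0.555, 0.0998 and 3.24 CPM, and read 5.03, 10.9 and 2.58 CPM at 30 min, so that its libraries overlapped (log2 2.21, SE 0.887).

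Detoxifying glutathione transferases of the tau class were mixed, with 5 of 24 called higher and 1 lower (median 0.12, of negative sign when libraries were scaled by totals alone). GSTU12 went from 0.740, 0.599 and 1.36 CPM to 36.0, 23.1 and 34.7 CPM (log2 5.09, SE 0.324, adjusted p = 6.6e-08). GSTU11 and GSTU5 rose by log2 values of 4.11 and 3.04, and GSTU16 fell by 1.66.

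Salicylic acid genes had 4 of 18 called higher and none lower (median 0.94), and between 3 and 5 higher when single hen2-4 libraries were left out. SARD1, which activates salicylic acid synthesis genes, read 29.2, 16.2 and 20.8 CPM at 10 min and 84.9, 62.7 and 103 CPM at 30 min (log2 1.92, SE 0.415). FMO1, which makes the systemic signal N-hydroxypipecolic acid, and NPR1, the salicylic acid receptor, rose by log2 values of 1.78 and 1.18. In jasmonate synthesis 4 of 16 genes were called higher (median 0.04, of negative sign with totals alone), and between 2 and 5 in such fits. LOX4, a lipoxygenase of that pathway, went from 54.3, 51.8 and 91.9 CPM to 412, 297 and 300 CPM (log2 2.35, SE 0.319). Of 12 JAZ repressor genes 3 were called higher, and 2 or 3 when single hen2-4 libraries were left out. JAZ1 read 298, 224 and 281 CPM at 10 min and 587, 654 and 742 CPM at 30 min (log2 1.3, SE 0.208). Of the 12 ethylene genes none was called higher and only ACS4, an ethylene synthesis gene, lower. Of 14 abscisic acid genes, 1 was called higher (HAI1, log2 1.58) and 3 lower (AFP2, NCED3 and PP2CA). NCED3 lost the call without any 1 of the 6 hen2-4 libraries and PP2CA without replicate 2 at 10 min or replicate 1 at 30 min, and such fits called 1 or 2 genes of the list lower.

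Chaperone genes made up most of the largest rises in hen2-4 at a mean of at least 5 CPM. Of 26 genes of the HSP70, HSP90 and HSP101 families and their co-chaperones, 20 were called higher and none lower (median 1.92). Their summed level rose from between 3456 and 3978 CPM at 10 min to between 14266 and 15719 CPM at 30 min. HSP70 (AT3G12580, chr3:3991117-3993886, minus strand), the stress-induced cytosolic member, went from 67.8, 59.9 and 63.2 CPM to 1884, 2330 and 2942 CPM (log2 5.23, SE 0.266, adjusted p = 9.7e-09). HSP90.1 went from 56.7, 49.2 and 85.6 CPM to 2393, 2068 and 1152 CPM (log2 4.87, SE 0.497). HSP101, the disaggregase of thermotolerance, went from 17.2, 12.9 and 19.9 CPM to 214, 301 and 212 CPM (log2 3.86, SE 0.274). In all 3 the late libraries exceeded the early ones by an order of magnitude or more. The constitutive HSC70-1, given for contrast, read 2342, 1873 and 1659 CPM at 10 min and 3886, 3485 and 5561 CPM at 30 min (log2 1.14, SE 0.226).

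Of 30 HSP20-like genes, 14 were called higher and 1 lower (median 1.71). HSP17.6II, a cytosolic class II protein, read 1.17, 3.94 and 16.8 CPM at 10 min and 693, 775 and 347 CPM at 30 min (log2 6.35, SE 0.816). HSP17.6A read 2.34, 6.64 and 33.7 CPM, then 635, 792 and 426 CPM (log2 5.43, SE 0.791), and HSP23.6-MITO, of the mitochondrion, 0.802, 0.948 and 4.65 CPM, then 93.7, 113 and 79.7 CPM (log2 5.44, SE 0.649). Replicate 3 was the highest early library for each of these genes, and without it their log2 changes were 7.82, 7.05 and 6.72. Leaving out single hen2-4 libraries gave between 13 and 16 higher calls in the family. HSFA2, the heat shock factor that sustains chaperone expression (chr2:11135624-11137792, plus strand), went from 1.23, 0.899 and 1.69 CPM to 17.1, 19.4 and 20.7 CPM (log2 3.89, SE 0.484, adjusted p = 3.7e-05). It was 1 of 2 heat shock factor genes called higher among 16. AT5G02480, an HSP20-like gene, fell from 84.4, 79.4 and 59.3 CPM to 21.1, 15.3 and 16.8 CPM (log2 -2.07, SE 0.269).

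The heat shock element was spelled GAANNTTC or TTCNNGAA, and matches may overlap. It was found in 25.7% of windows of genes called higher, 13.9% of those called lower and 15.9% of all. It was in 13 of 30 windows of HSP20-like genes and in 9 of 26 of the HSP70, HSP90 and HSP101 group, whereas the W-box was in 3 of the 30. The upstream stretches of HSP17.4, with 198, 208 and 81.1 CPM at 30 min against 0.555, 0.998 and 5.45 CPM at 10 min, and of HSFA2 are shown because they hold 4 and 3 matches, in capitals. They lie at chr3:16984868-16985070 (minus strand) and chr2:11135466-11135623 (plus strand), shortened to bases outside any annotated gene.
HSP17.4: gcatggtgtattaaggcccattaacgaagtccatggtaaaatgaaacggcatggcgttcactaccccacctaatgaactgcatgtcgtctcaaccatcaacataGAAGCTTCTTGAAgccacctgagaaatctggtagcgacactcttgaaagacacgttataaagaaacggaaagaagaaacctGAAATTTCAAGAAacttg
HSFA2: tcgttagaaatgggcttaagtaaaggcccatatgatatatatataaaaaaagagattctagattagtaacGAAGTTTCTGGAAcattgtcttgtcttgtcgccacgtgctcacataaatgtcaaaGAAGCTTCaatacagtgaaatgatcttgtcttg

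Folding genes of the endoplasmic reticulum, through which receptors and secreted defence proteins pass, had 14 of 17 called higher and none lower (median 1.53). BIP2, an HSP70 of that compartment, went from 296, 196 and 258 CPM to 1346, 991 and 1114 CPM (log2 2.2, SE 0.209, adjusted p = 2.8e-06). SDF2, a lumenal protein required for receptor accumulation, went from 50.6, 52.3 and 66.2 CPM to 191, 220 and 257 CPM (log2 1.98, SE 0.197), and ATERDJ3A, a J-domain co-chaperone, from 1.48, 1.70 and 2.63 CPM to 23.6, 21.3 and 12.8 CPM (log2 3.29, SE 0.435). The times did not overlap for any of these. BZIP60, a transcription factor of the unfolded protein response given for its role, changed by a log2 of 1.73 (SE 0.338). The G-box (CACGTG) was in 8 of 17 windows of this group, against 8.62% of all windows. That of SDF2 is shown at chr2:10683845-10684094 (plus strand), with the G-box in capitals.
SDF2: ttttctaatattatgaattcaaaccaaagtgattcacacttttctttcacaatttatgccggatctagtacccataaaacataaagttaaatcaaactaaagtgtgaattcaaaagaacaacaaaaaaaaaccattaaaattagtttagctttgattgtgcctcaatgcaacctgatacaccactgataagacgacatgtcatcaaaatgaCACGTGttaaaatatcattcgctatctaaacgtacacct

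**Figure D3:**
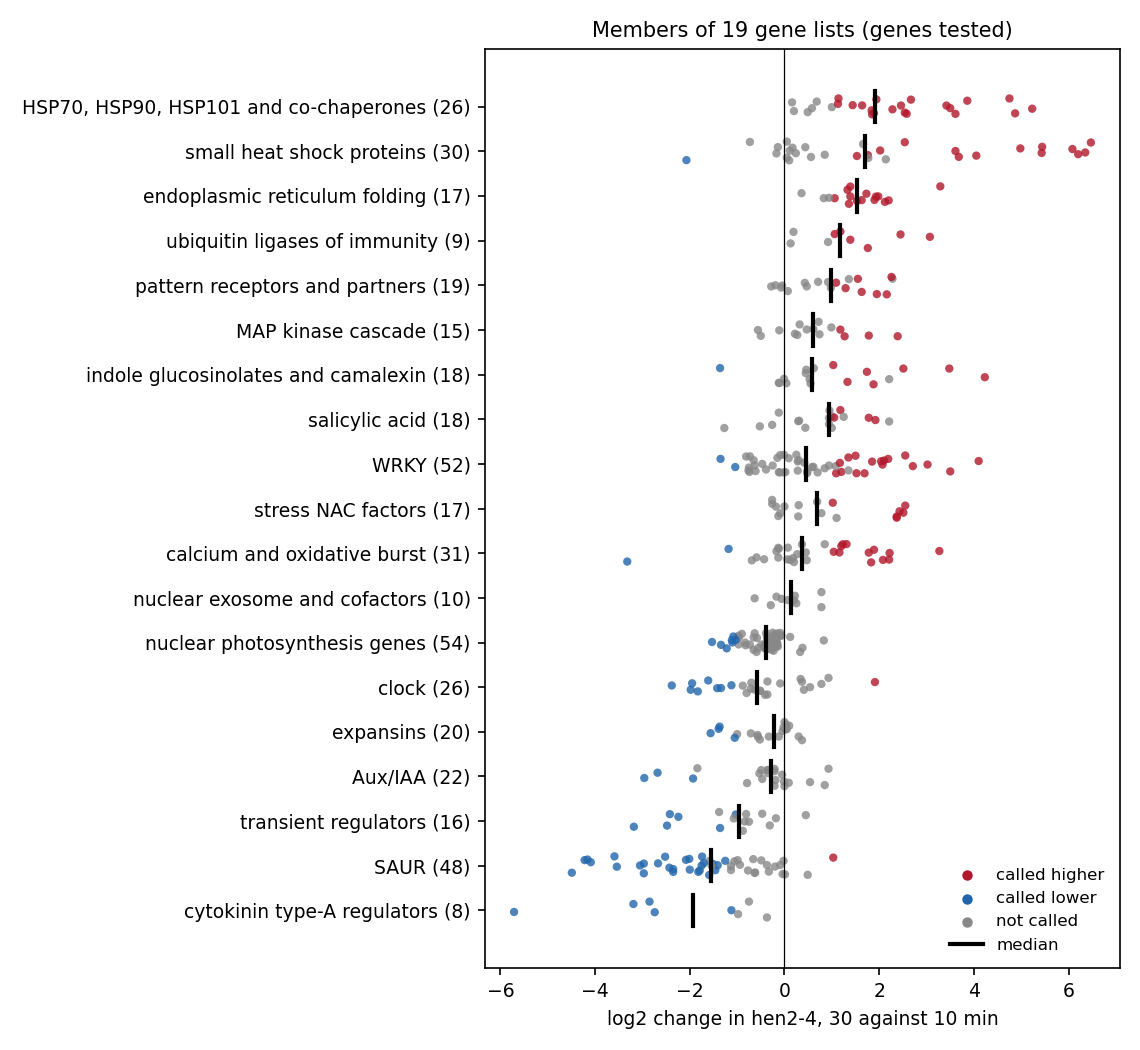
Log2 change from 10 to 30 min in hen2-4 for the members of 19 gene lists, with 1 point per tested gene (red called higher, blue called lower, grey not called) and a bar at the median. Medians run from 1.92 for the HSP70, HSP90 and HSP101 group down to -1.93 for type-A cytokinin regulators, with the exosome genes near 0 (0.13).

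Several groups of growth-related genes had members called lower. SAUR genes encode short-lived proteins that promote cell expansion when auxin rises. Of 48 tested, 27 were called lower and 1 higher (median -1.56), and between 23 and 27 were called lower when single hen2-4 libraries were left out. SAUR15, for example, went from 2.4, 1.5 and 1.79 CPM to 0, 0.183 and 0.0891 CPM, so that its late libraries were near or under the level of 3 tags. Of 22 Aux/IAA genes, which encode auxin-induced repressors, 3 were called lower. SHY2, also known as IAA3, went from 12.1, 15.8 and 9.22 CPM to 1.63, 1.65 and 1.47 CPM (log2 -2.96, SE 0.329, adjusted p = 1.3e-05). IAA29 and ATAUX2-11 fell by log2 values of 2.68 and 1.93, the latter not called without replicate 3 at 30 min. Among 8 GH3 genes, whose enzymes conjugate auxin, BRU6 was called higher (log2 1.74) and DFL2 lower (log2 -1.41). The auxin response element (TGTCTC) was in 12.5% of SAUR windows and 11.1% of all windows.

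Of 8 type-A cytokinin response regulators, 5 were called lower (median -1.93), and 3 or 4 when single hen2-4 libraries were left out. ARR6 went from 15.7, 8.84 and 8.28 CPM to 1.29, 1.65 and 1.92 CPM (log2 -2.74, SE 0.427, adjusted p = 3.2e-04). ARR4 read 171, 165 and 216 CPM at 10 min and 78.2, 85.5 and 91.2 CPM at 30 min (log2 -1.12, SE 0.140). In both the groups did not overlap. GA2OX6, which inactivates gibberellins, was the 1 gene called among 11 of brassinosteroid and gibberellin metabolism and rose from 6.60, 7.19 and 5.17 CPM to 52.4, 54.6 and 60.3 CPM (log2 3.14, SE 0.181, adjusted p = 2.4e-08).

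Some cell wall genes were called in each direction. Of 20 expansins, which loosen walls, 4 were called lower and none higher, and between 2 and 4 lower with single libraries left out. EXPA14 went from 16.2, 9.73 and 17.3 CPM to 3.88, 6.73 and 5.97 CPM (log2 -1.37, SE 0.267). Of 28 genes for xyloglucan-modifying XTH enzymes, 2 were called higher and 4 lower, or between 1 and 3 and between 1 and 4 with single libraries left out. XTH18 rose from 76.8, 59.4 and 73.5 CPM to 343, 472 and 573 CPM (log2 2.73, SE 0.271), while XTH15 fell from 65.7, 72.0 and 60.7 CPM to 18.6, 28 and 30.6 CPM (log2 -1.36, SE 0.275). XTH18 and XTH15 thus changed in opposite directions from similar starting levels, and both kept their calls in all 6 fits with a hen2-4 library left out. Of the other called XTH genes, XTH4 kept its call in 5 such fits, XTH19 and XTH12 in 2 each and XTH26 in 1. For comparison, 1133 of all 18879 tested genes were called higher and 1002 lower, so these few calls do not show a trait of the family.

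Of 54 nuclear photosynthesis genes, 7 were called lower and none higher (median -0.38). Their summed level was between 71110 and 100100 CPM at 10 min and between 58692 and 73129 CPM at 30 min, with overlapping ranges. CAB2, a chlorophyll-binding antenna protein (chr1:10474656-10475969, minus strand), went from 187, 313 and 235 CPM to 84.5, 63.7 and 107 CPM (log2 -1.53, SE 0.323, adjusted p = 0.00361). LHCB2.1, another antenna protein, went from 403, 480 and 382 CPM to 215, 170 and 202 CPM (log2 -1.11, SE 0.208). The count of lower calls varied between 3 and 11 when single libraries were left out. The markers of both parts of the seedling were present. Of 14 shoot markers 3 were called lower, with sums of 19953 to 28872 CPM at 10 min and 15692 to 20963 CPM at 30 min. Of 14 root markers none was called, with sums of 372 to 480 CPM and 277 to 369 CPM, so both sums were lower at 30 min. Whether the mix of organs differed between the pools was not tested.

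Of 26 clock genes, 8 were called lower and 1 higher (median -0.57). CCA1, a MYB factor of the morning loop (chr2:19245591-19248915, plus strand), went from 5.36, 11.0 and 11.2 CPM to 1.56, 2.02 and 1.69 CPM (log2 -2.38, SE 0.50, adjusted p = 0.00347). Its partner LHY was called lower at a log2 of -1.95, which held in 2 of 6 fits with a hen2-4 library left out. AT3G54500, a clock coactivator gene of the LNK family, fell from 104, 143 and 108 CPM to 20.6, 39.9 and 29.1 CPM (log2 -1.98, SE 0.232). BOA, an evening complex factor, was the gene called higher, from 4.93, 7.14 and 5.92 CPM to 21.0, 24.3 and 22.3 CPM (log2 1.91, SE 0.241). In wt, CCA1 and LHY were not called, at log2 changes of -0.95 and -0.51, and no clock gene was called for a difference between the genotypes. Clock windows held the G-box in 12 of 26 and the evening element (AAAATATCT) in 5 of 26, against 2.50% of all windows for the latter. That of CCA1 is shown at chr2:19245380-19245590 (plus strand), shortened to bases outside any annotated gene and with the G-box in capitals.
CCA1: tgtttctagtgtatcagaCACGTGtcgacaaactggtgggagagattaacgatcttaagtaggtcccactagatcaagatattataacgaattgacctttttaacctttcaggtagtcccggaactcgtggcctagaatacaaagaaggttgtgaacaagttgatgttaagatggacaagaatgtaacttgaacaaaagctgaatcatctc

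**Figure D4:**
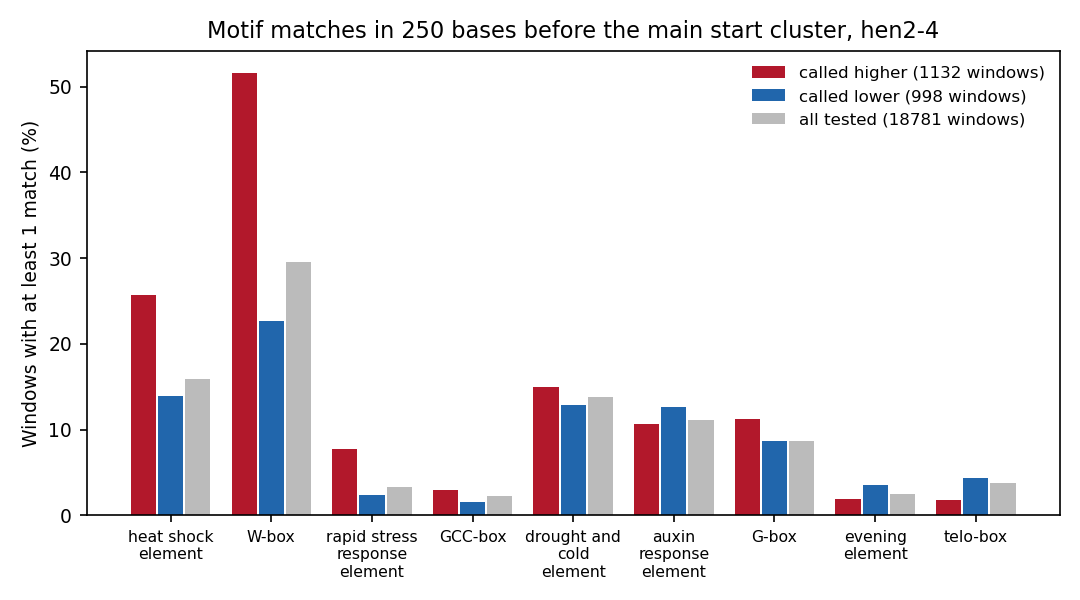
Share of windows of 250 bases with at least 1 match (%), for genes called higher in hen2-4 (red), called lower (blue) and all tested genes (grey). The W-box bars stand at 51.6%, 22.7% and 29.6%, the rapid stress response element at 7.77%, 2.4% and 3.33%, and the telo-box at 1.77%, 4.31% and 3.79%.

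The remaining motifs were found in fewer windows. The rapid stress response element (CGCGTT), a stress-linked CGCG-type sequence, was in 7.77% of windows of genes called higher and 2.4% of those called lower. The telo-box (AAACCCTA), common before ribosomal protein genes, was in 1.77% and 4.31%. The GCC-box (GCCGCC) of ERF factors was in 2.92% and 1.60%, and the drought and cold element (CCGAC) in 15% and 12.9%. Over all windows, the shares of these motifs were 3.33%, 3.79%, 2.24% and 13.8%, in the order given. These shares describe letters in the windows and do not show binding.

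None of the listed genes of the RNA decay machinery was called. The lists are partial, since names such as RRP42, RRP46, MTR3, CSL4 and SKI2 matched no annotated gene and are missing. Of 10 genes of the nuclear exosome and its cofactors, none was called (median 0.13, and -0.11 when libraries were scaled by totals alone). Of all tested genes, 11.3% were called. MTR4, the nucleolar relative of HEN2, read 35, 32.3 and 38.7 CPM at 10 min and 46.7, 41.1 and 33.7 CPM at 30 min (log2 0.20, SE 0.161). EMB2763, an exosome-associated nuclease of the RRP44 type, read 48.6, 42.8 and 40.8 CPM and then 39.6, 31.7 and 36.7 CPM (log2 -0.29, SE 0.126). The libraries of the times overlapped for MTR4 and did not for EMB2763. RRP4 and RRP41L, both core subunit genes, had the highest log2 changes of the list, each 0.78 (SE 0.170 and 0.158, adjusted p = 0.00444 and 0.00252), under the fold limit. Among 27 genes of other RNA decay pathways none was called either, including XRN3, a nuclear 5′ to 3′ nuclease with 198, 195 and 194 CPM at 10 min and 155, 168 and 189 CPM at 30 min. No ribosomal protein gene was called among 15 (median 0.28, and 0.04 with totals alone).

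Many snoRNA genes and fewer microRNA genes were called lower at 30 min, and fewer of both without replicate 1 at 10 min. These classes were singled out after their values were seen, and tags at them mark capped 5′ ends of precursors rather than mature RNAs. Of 30 snoRNA genes tested, whose products guide modification of ribosomal RNA, 21 were called lower in hen2-4 and none higher (median log2 -1.97), against 5 called lower in wt (median -1.06). Their summed level in hen2-4 was 689, 268 and 256 CPM at 10 min and 117, 156 and 138 CPM at 30 min. In wt it was 85.7, 139 and 89.0 CPM and then 78.4, 60.3 and 73.1 CPM. The highest value was that of replicate 1 at 10 min, and the other early libraries of hen2-4 were still above all late ones and above all of wt. Without replicate 1, 12 snoRNA genes were called lower (median -1.29), and without replicate 3, 20 were. In 26 of the 30 genes all 3 hen2-4 libraries at 10 min lay above all wt libraries of that time, and in 18 of the 30 at 30 min. Among 18306 protein-coding genes the same held for 1796 at 10 min and 1279 at 30 min. The difference of the time changes between genotypes was not called for any of them (smallest adjusted p = 0.868).

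AT1G75163, the snoRNA gene among the largest falls (chr1:28212395-28212474, plus strand), read 42.9, 12.5 and 11.7 CPM at 10 min and 1.5, 1.79 and 2.45 CPM at 30 min (log2 -3.52, SE 0.671, adjusted p = 0.00165). AT5G44286 read 6.23, 5.54 and 4.14 CPM and then 0.544, 0.550 and 0.401 CPM (log2 -3.40, SE 0.511), with a log2 change of -3.27 without replicate 1. Its early libraries were even, so the fall did not rest on 1 library. AT3G58193 was the opposite case, with 66.7, 6.44 and 8.37 CPM against 2.31, 4.44 and 4.14 CPM. Its log2 change went from -2.88 to -1.01 without replicate 1, and the call was lost (adjusted p = 0.155).

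Of 31 microRNA genes, 13 were called lower in hen2-4 and 1 higher (median -1.19), against 5 lower in wt (median -1.06). Without replicate 1 at 10 min, 6 were called lower (median -0.79). MIR825, whose microRNA targets transcripts of immune receptors, went from 11.3, 12.9 and 9.03 CPM to 2.52, 3.07 and 2.94 CPM (log2 -1.95, SE 0.357, adjusted p = 0.00124) and had a log2 change of -1.94 without that library. MIR398c and MIR398b, of a family that targets copper superoxide dismutase transcripts, read 25.5, 29.5 and 21.9 CPM and 37.5, 35.7 and 23.3 CPM at 10 min. At 30 min they read 12.9, 9.53 and 11.3 CPM and 11.5, 11.6 and 11.4 CPM, log2 changes of -1.19 (SE 0.198) and -1.48 (SE 0.496). The call of MIR398c held without any 1 library, and that of MIR398b in 1 of 6 such fits (adjusted p = 0.121 without replicate 1 at 10 min). MIR168a, which targets the transcript of AGO1, was the 1 called higher, from 1.05, 1.65 and 0.658 CPM to 2.79, 3.25 and 1.74 CPM, and kept the call in 2 of 6 such fits (adjusted p = 0.0883 without replicate 1 at 10 min and 0.108 without replicate 3). Other non-coding RNA genes had 28 of 89 called lower, and 13 without replicate 1. Long non-coding RNA genes had 16 of 129 called lower, against 22 in wt. Protein-coding genes, for comparison, had 899 of 18306 called lower (4.91%).

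**Figure D5:**
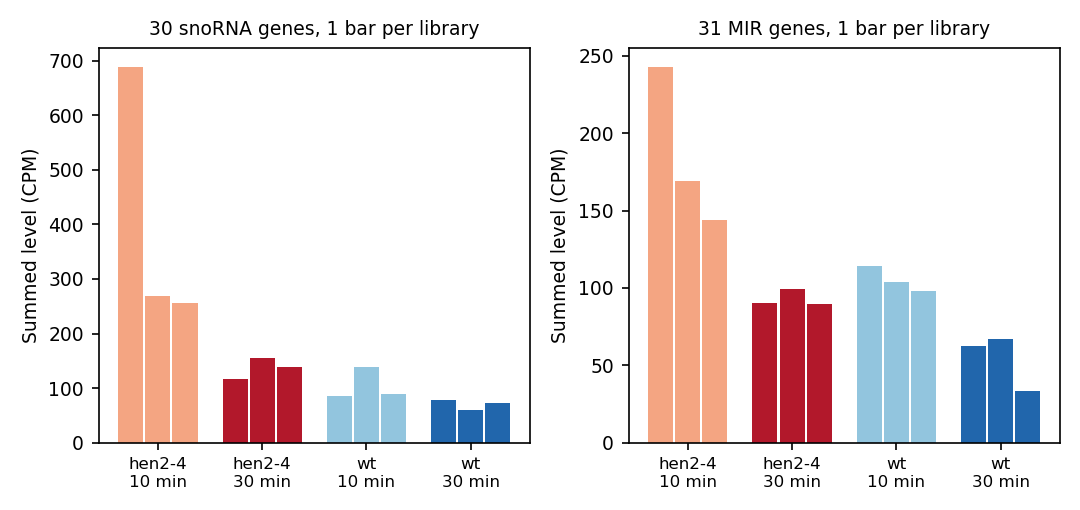
Summed level (CPM) of 30 snoRNA genes and 31 microRNA genes, with 1 bar per library in replicate order. Replicate 1 of hen2-4 at 10 min is the tallest snoRNA bar (689 CPM), and the other hen2-4 bars at 10 min (268 and 256 CPM) also exceed every wt bar, the highest of which is 139 CPM.

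Genes sensitive to the exosome were taken from the contrast of rrp4-2 and wt, as the 368 genes (1.95% of those tested) that were called higher in rrp4-2 at 30 min. The contrast holds no hen2-4 library, but the spread was estimated over all groups, and a fit on those groups alone called 191 genes in either direction in place of 509. In hen2-4, 26 of them were called higher between the times (7.07%) and 44 lower (12.0%), with a median of -0.15, whereas the other 18511 genes had 5.98% called higher and 5.18% lower. The sensitive genes had a median level of 5.92 CPM against 12.8 CPM for the rest. Among genes of at least 5 CPM, 10 of 204 sensitive genes were called higher and 22 lower, against 901 and 470 of 13209 others. CIPK20, a kinase of calcium signalling, had the largest fall of those named, from 20.1, 27.2 and 14.7 CPM to 4.42, 3.94 and 3.52 CPM (log2 -2.39, SE 0.261, adjusted p = 1.1e-05). DAR3, of the DA1 family of regulators, rose from 13.9, 9.43 and 15.4 CPM to 45.5, 42 and 43.6 CPM (log2 1.76, SE 0.213). AT5G20225, a non-coding RNA gene, rose from 4.07, 2.15 and 2.30 CPM to 10.3, 7.6 and 12.3 CPM (log2 1.84).

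Starts within genes were followed through tag clusters (TCs), runs of neighbouring 5′ ends on the same strand. Of 26504 TCs tested, 1931 were called higher (7.29%) and 1674 lower (6.32%). Of clusters placed in no gene, 270 of 2792 were called higher (9.67%) and 329 lower (11.8%), against 7.0% and 5.67% of those in genes. Of 508 called genes with more than 1 tested cluster, 454 had all clusters moving the same way. Of 3284 genes with more than 1 cluster, 13 had at least 1 called higher and 1 called lower, and the 4 with the widest gap were GH3.9, AT5G44060, JMJD5 and CA1.

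In GH3.9, a gene of auxin conjugation (annotated as AT2G47750), a cluster 3084 bases from the annotated start went from 0.119, 0.144 and 0.0455 CPM to 4.19, 3.55 and 4.99 CPM (log2 5.31, SE 0.378, adjusted p = 1.4e-07). A cluster at 558 bases fell from 1.3, 1.2 and 1.73 CPM to 0.532, 0.315 and 0.490 CPM (log2 -1.67, SE 0.432). The distal start thus became the larger of the pair. In JMJD5, a histone demethylase-like gene of the clock, the cluster at 86 bases rose from 18.3, 18.3 and 15.2 CPM to 41.1, 43.2 and 44.2 CPM (log2 1.31, SE 0.192), and the 1 at 1927 bases fell from 2.43, 1.78 and 0.773 CPM to 0.333, 0.0899 and 0.0890 CPM (log2 -3.35, SE 0.827). In CA1, a chloroplast carbonic anhydrase, the main cluster at 656 bases fell from 324, 320 and 222 CPM to 175, 126 and 83.5 CPM (log2 -1.17, SE 0.361), while a minor cluster at 2208 bases rose from 1.42, 1.40 and 0.455 CPM to 4.72, 4.94 and 5.25 CPM (log2 2.2, SE 0.443). In JMJD5 and CA1 the main start kept most tags at both times.

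Clusters in no gene were ranked by the size of their change. Only called ones with a mean of at least 5 CPM and no overlap between the times entered. The cluster at chr3:7492990-7493066 (plus strand), inside the span of AT3G21300, went from 1.24, 1.06 and 2.78 CPM to 29.5, 35.5 and 42.6 CPM (log2 4.38, SE 0.427, adjusted p = 2.9e-06). The cluster at chr2:6761301-6761372 (minus strand), inside the span of UGT73B5, a glucosyltransferase gene of redox and defence responses, went from 0.0593, 0.241 and 0.682 CPM to 10.9, 10.6 and 10.0 CPM (log2 4.91, SE 0.556). Overlap with these genes was read without regard to strand, so sense and antisense starts were not told apart. The largest falls were highest in replicate 1 at 10 min, as the cluster at chr1:8756584-8756596 (minus strand) shows, with 60.8, 5.15 and 3.82 CPM against 0.798, 1.26 and 1.16 CPM.

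The wt libraries at the same times, which share none with hen2-4, gave 1426 genes called higher (7.55%) and 686 lower (3.63%), 2112 in all and 1964 without replicate 3 at 30 min. The 1133 genes that rose in hen2-4 and the 1426 of wt shared 993, and 1128 of the former had a positive log2 change in wt. The 1002 that fell in hen2-4 and the 686 of wt shared 376, and 980 of the former had a negative change in wt. No gene was called in opposite directions. The difference of the time changes between the genotypes was called for 0 genes (0%) by edgeR, with 1079 genes at an unadjusted p under 0.05 and a smallest adjusted p of 0.103. The same test with limma voom called 0 genes, and DESeq2 called 10. All 10 had a lower log2 change in hen2-4 than in wt, among them CYP71B24, a cytochrome P450 gene with an edgeR log2 difference of -1.99 (adjusted p = 0.103). All 10 also had a higher mean in hen2-4 than in wt at 10 min. For CYP71B24 the means were 4.72 against 2.81 CPM at 10 min and 5.58 against 13.1 CPM at 30 min. For ACD6 they were 9.67 against 1.22 CPM and then 9.28 against 8.50 CPM. For the lists above, wt had 18 HSP20-like genes called higher against 14 in hen2-4, 21 WRKY genes against 17, 13 indole glucosinolate and camalexin genes against 7, and 22 SAUR genes called lower against 27. None of their members was called for a difference between genotypes by edgeR, and the unequal counts alone do not show unequal responses. DESeq2 called 1 of them, CYP71A12, a P450 of camalexin synthesis, which read 4.87, 9.19 and 16.8 CPM at 10 min and 16.2, 15 and 13.8 CPM at 30 min in hen2-4, with overlapping times. In wt it went from 2.42, 1.91 and 2.73 CPM to 16.1, 21.1 and 23.7 CPM, a log2 difference of -2.58 (adjusted p = 3.1e-04 by DESeq2 and 0.344 by edgeR).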

How the data were processed

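Capped 5′ ends were counted in 15 libraries, and the 6 of hen2-4 carry the results. Per the labels, the authors mapped reads to TAIR10 with Bowtie 1.1.2, and by the study's methods they joined 5′ ends of uniquely mapped reads into tag clusters with CAGEfightR and dropped rarely used clusters. Repeated sequence is therefore under-represented, and starts of low use were removed before any test. The authors deposited raw counts of tags per gene and per cluster, which were used for every main result, and TPM values, which they scaled per 1000000 tags and which served only in an alternative. Each table also held 9 columns that matched no labelled sample and were not used. Clusters were assigned to a gene where a run of neighbours on its strand summed to the gene's tags in every library, which placed 23819 of 26677 clusters and matched all 18934 genes. RefSeq annotated 18800 of these genes.

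Tests used the edgeR 4.0.16 quasi-likelihood model in R 4.3.3, with TMM factors, filterByExpr (18879 genes kept) and 1 coefficient per group over 15 libraries. Adjusted p-values are Benjamini-Hochberg values over all genes or clusters. A call needed an adjusted p no larger than 0.05 together with a log2 change of at least 1 in size. The SE of a log2 change was its size divided by the square root of F. Alternatives used limma 3.58.1 (voom, and limma-trend on log2(TPM + 1) or log2(TPM + 0.1)), DESeq2 1.42.0, other scalings and filters, a replicate block and leaving out single libraries. Scripts were checked on simulated counts. Floors of 3 tags cover counting error only. Tables were handled in Python 3.11.15 with pandas 2.3.3.

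Members and lists were chosen with earlier results of these data known, so lists are described by counts and medians and carry no test. The naming rule took HEN2, the 10 largest called rises and falls with a mean of at least 5 CPM and no overlap, up to 4 called members of each list per direction, members of lists of up to 16 genes, and the 4 genes with the widest gap between clusters called in opposite directions. Genes outside it are named as chosen for their role or after their values were seen. Shares of exosome-sensitive genes and of motifs are descriptions. No sequence of mature microRNAs or proteins was used here.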

Additional observations from a re-analysis of the deposited data

How the results depend on the processing

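Without the fold limit, 4121 genes were called in hen2-4 (2266 higher, 1855 lower), 3766 in wt, 818 between rrp4-2 and wt and 5650 clusters, against 2135, 2112, 509 and 3605 with it. Limma-trend called 743 genes higher with a pseudocount of 1 and 1711 lower with 0.1, and library sizes alone called 1807 lower, against 1133 and 1002. Fitted on the groups compared alone, rrp4-2 and wt differed in 191 genes. The difference of time changes was called for 10 genes by DESeq2, for 1 without replicate 1 of hen2-4 at 10 min and for 1 without replicate 3 of wt at 30 min, and the range over libraries left out was 0 to 1. Leaving out single libraries gave 1679 to 2359 genes in hen2-4 (999 to 1236 higher and 670 to 1172 lower), 1832 to 2440 in wt, 339 to 649 between rrp4-2 and wt (339 without replicate 2 of rrp4-2) and 2644 to 3913 clusters. The cause of these shifts was not tested, except that fewer samples entered the fits with a library left out. DESeq2 called 2278 genes in hen2-4, voom 2082, and RLE size factors 2150.

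No pairing by replicate number was seen, though so few libraries cannot exclude it. Deviations of same-numbered libraries of hen2-4 correlated at -0.0647, 0.0582 and -0.18. Those of differently numbered libraries correlated between -0.208 and 0.234. With the replicate number as a block, 2133 genes were called (1149 higher, 984 lower), 3537 clusters, 2127 genes in wt, 475 between rrp4-2 and wt and 0 for the difference. Genes under 0.204 CPM lie near the floor of 3 tags, so that their fold changes are imprecise.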
